A study of Arabidopsis thaliana with 5 samples.

Results

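Class III peroxidases are a large family of secreted plant heme enzymes. Their transcript levels are described here in Arabidopsis thaliana root cells sorted for activity of the promoter of BRL3, a brassinosteroid receptor gene. The family was taken as 60 listed loci, each read from a probe set that names exactly 1 gene in the platform annotation. In all, 44 of the 60 loci had such a probe set, among 22746 Arabidopsis probe sets on the array. Of the other 16 loci, 5 (AT2G18150, AT2G38380, AT2G38390, AT4G37520 and AT4G37530) were named only by probe sets that name several genes, and 11 were not analysed here (AT1G05240, AT1G05250, RCI3, PER4, AT3G32980, PRXCA, PRXCB, PA2, RHS18, PER64 and RHS19). No filter on low values was applied, so all 44 genes entered every count.

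The arrays were 2 of brassinolide (BL)-treated and 3 of control seedlings. BL, the most active natural brassinosteroid, was given for 2 h at 10 nM in liquid medium, and controls had ethanol in the same medium. All seedlings, 6 days old and grown on half-strength medium in long days, carried pBRL3:nlsYFP, a nuclear yellow fluorescent protein driven by the BRL3 promoter. Protoplasts from primary root tips were sorted for the fluorescence, and their polyA RNA was hybridised to Affymetrix ATH1 arrays. The sorted cells are thus those in which this promoter was active, whatever their cell type. Fewer cells of a type and less RNA per cell cannot be told apart in such samples.

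Class III peroxidases work in the cell wall, where they use hydrogen peroxide to oxidise phenolic compounds and can also produce reactive oxygen species themselves. By cross-linking lignin monomers and wall proteins they stiffen walls, and by generating radicals they can loosen them. In roots, family members act in the lignin of the Casparian strip, the ring-shaped barrier of the endodermis, in the lignin of xylem vessels, in root hair growth, and in the balance of superoxide and hydrogen peroxide that sets where cells stop dividing and elongate.

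The arrays differed in ways that touch many of the values below. Across all Arabidopsis probe sets, which are not independent replicates, both BL arrays correlated at 0.992 with each other and at 0.969 and 0.974 with control 1. With control 3 they correlated at 0.951 and 0.952, and with control 2 at 0.898 and 0.905. The median of the poly-A spike-in probe sets, bacterial transcripts added before labelling, was 4.37 in BL 1 and 4.39 in BL 2, against 4.49 in control 1, 7.82 in control 2 and 7.39 in control 3 (log2). The difference of the BL mean from control 1 alone is therefore given beside the difference from all controls, for all 44 genes in the plot of differences and for many of them in the text. Gene BRL3 and the xylem, phloem, epidermis and quiescent centre markers chosen as checks had no single-gene probe set and were not analysed here.

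Among the 44 peroxidase genes, AT4G11290 was the gene most above controls with BL, AT1G71695 and AT4G33420 were the genes most below, and for 37 of the 44 genes the BL and control values overlapped. The mean with BL was higher for 12 genes and lower for 32, where 45.2% of all probe sets were higher and 54.8% lower, with a median log2 difference of -0.14 against -0.02 over all 22746 probe sets. By limma with Benjamini-Hochberg adjustment, 0 of the 44 genes passed an adjusted p under 0.05, where the background over all probe sets was also 0%. The smallest adjusted p in the family was 0.25. An unadjusted p under 0.05 was found for 4 of the 44 genes, against 7.1% of all probe sets. A looser description, with a fold of 1.5 or more and an unadjusted p under 0.01, held for 3 genes (AT4G11290, AT1G71695 and AT4G33420), or 6.82%, against 1.57% of all probe sets. That count was 2 without control 1, where 1108 of all 22746 probe sets met the same description, against 356 with all arrays. The family's excess over all probe sets was thus not seen in that fit. The family's count was 5 without control 2, when PRXR1, AT4G30170 and AT3G28200 joined AT1G71695 and AT4G33420, against 472 of all probe sets. Without control 3 it was 3, against 321. The members were chosen with earlier results of these arrays known, so these shares are descriptions and not tests.

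Both BL arrays lay above all controls for 3 of the 44 genes, where 11.4% of all probe sets did. Both lay below all controls for 4 genes, where 9.75% did. The family's shares of 6.82% and 9.09% were thus no higher than the background. The spread between arrays was wide in the family. The range over the 5 arrays was at least 1 log2 unit for 32 of the 44 genes, against 31.3% of all probe sets. The median SD over the controls was 0.88 for the 44 genes and 0.26 over all probe sets, and over the BL arrays it was 0.14 and 0.08. A fold of at least 1.5 between the group means, in either direction, was seen for 16 of the 44 genes and for 17.5% of all probe sets. In the plot of all differences, 32 of the 44 genes lie within 1 SE of 0.

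**Figure D1:**
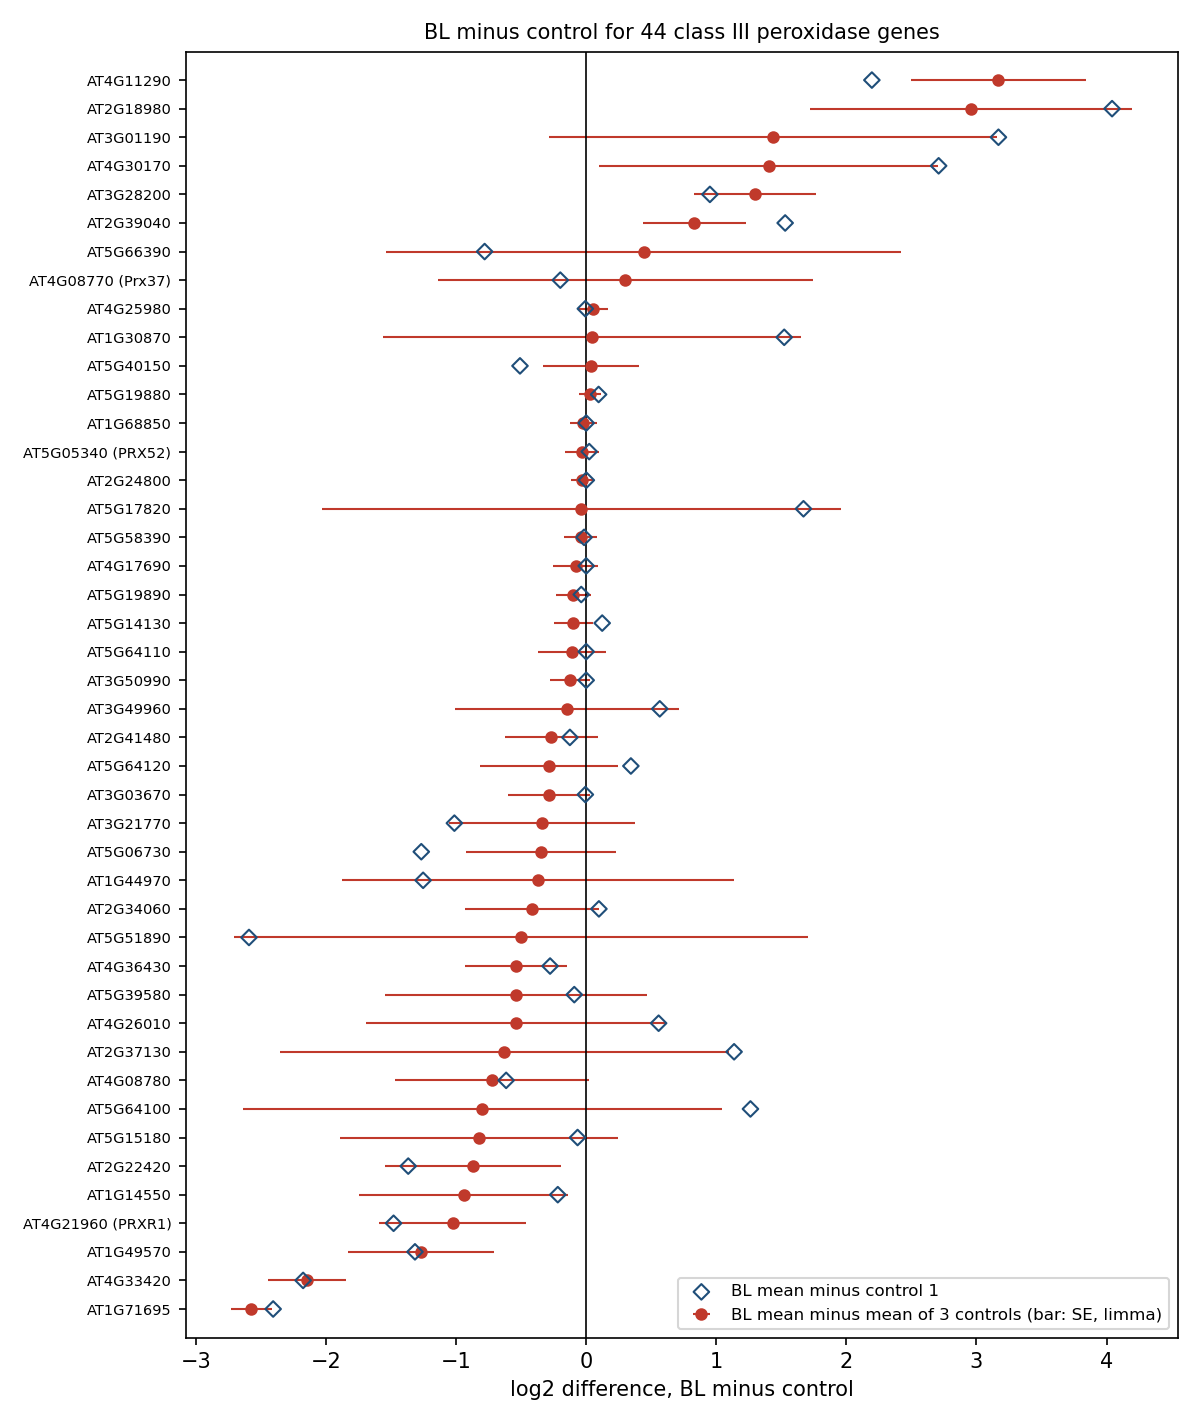
Log2 difference of the BL mean from the mean of the 3 controls for the 44 class III peroxidase genes (filled circles, bars are the SE from limma), with the difference from control 1 alone (open diamonds). AT4G11290 stands at the top with 3.17 and AT1G71695 at the bottom with -2.57, and 14 genes have circle and diamond on opposite sides of 0.

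AT1G71695 had the smallest p of the family. Its log2 values were 5.19 and 4.95 with BL, against 7.48, 7.83 and 7.62 in controls. The 3 controls lay close together and both BL arrays were more than 2 log2 units below the lowest of them. The mean was 5.07 ± 0.17 over the BL arrays and 7.64 ± 0.18 over the controls (SD, n = 2 and n = 3). The difference of -2.57 ± 0.16 (SE) is a fold of 5.95, with a limma adjusted p of 0.25. Against control 1 alone it was -2.41, and over the fits with 1 array left out it ran from -2.69 to -2.45.

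AT4G33420, one of the peroxidases implicated in the lignification of xylem vessels, was also lower with BL. It had 6.91 and 7.07 with BL, against 9.16, 9.57 and 8.66 in controls, so the groups did not overlap. The difference of -2.15 ± 0.30 (SE) is a fold of 4.43, with a limma adjusted p of 0.548, and it was -2.18 against control 1 alone. AT5G51890, the other vessel peroxidase measured, had 8.22 and 8.84 with BL, against 11.12, 10.97 and 5.0 in controls. Both BL arrays lay between control 3, far below, and the other controls, far above. Its difference of -0.50 ± 2.20 (SE) had no settled direction, at -2.52 without control 3 and -2.59 against control 1 alone, but 0.55 without control 1, 0.47 without control 2 and 1.45 with arrays weighted by their residual spread.

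Lower values with BL and no overlap were also found for AT1G49570 and AT4G36430. AT1G49570 had 4.83 and 4.62 with BL, against 6.04, 5.10 and 6.85 in controls, a difference of -1.27 ± 0.56 (SE) with a limma adjusted p of 0.743, which ran from -1.72 without control 2 to -0.84 without control 3. AT4G36430 had 4.59 and 4.64 with BL, against 4.89, 4.72 and 5.85 in controls, so BL 2 lay just under control 2, and its fold of 1.45 was under the 1.5 used elsewhere. Its difference of -0.54 ± 0.39 (SE) was -0.28 against control 1 alone and -0.19 without control 3. Both genes lay below the median of the array with BL.

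AT4G11290 stood out on the other side. This gene belongs to the peroxidases that lignify the Casparian strip, and it is one of those that the transcription factor UPBEAT1 represses where root cells pass from division to elongation. It had 9.53 and 8.75 with BL, against 6.95, 6.00 and 4.97 in controls, with every BL value above every control. The mean was 9.14 ± 0.55 over the BL arrays and 5.97 ± 0.99 over the controls (SD, n = 2 and n = 3). The difference of 3.17 ± 0.67 (SE) is a fold of 9.0, with a limma adjusted p of 0.568. Against control 1 alone, the control nearest to the BL arrays here, it was 2.20. Control 3 was the lowest array, and the difference was 2.67 without control 3 and 3.66 without control 1.

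AT3G28200 and AT2G39040 were the other genes with both BL arrays above all controls. AT3G28200 had 8.01 and 8.28 with BL, against 7.19, 6.02 and 7.32 in controls, a difference of 1.30 ± 0.47 (SE) that was 0.95 against control 1 alone and 0.88 without control 2. AT2G39040 had 7.43 and 7.60 with BL, against 5.98, 6.96 and 7.10 in controls, a difference of 0.83 ± 0.39 (SE) that was 1.53 against control 1 alone and 0.48 without control 1. Their limma adjusted p values were 0.690 and 0.751. Here the choice of controls moved the size of the difference, while its direction was fixed, since both BL arrays lay above all controls.

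**Figure D2:**
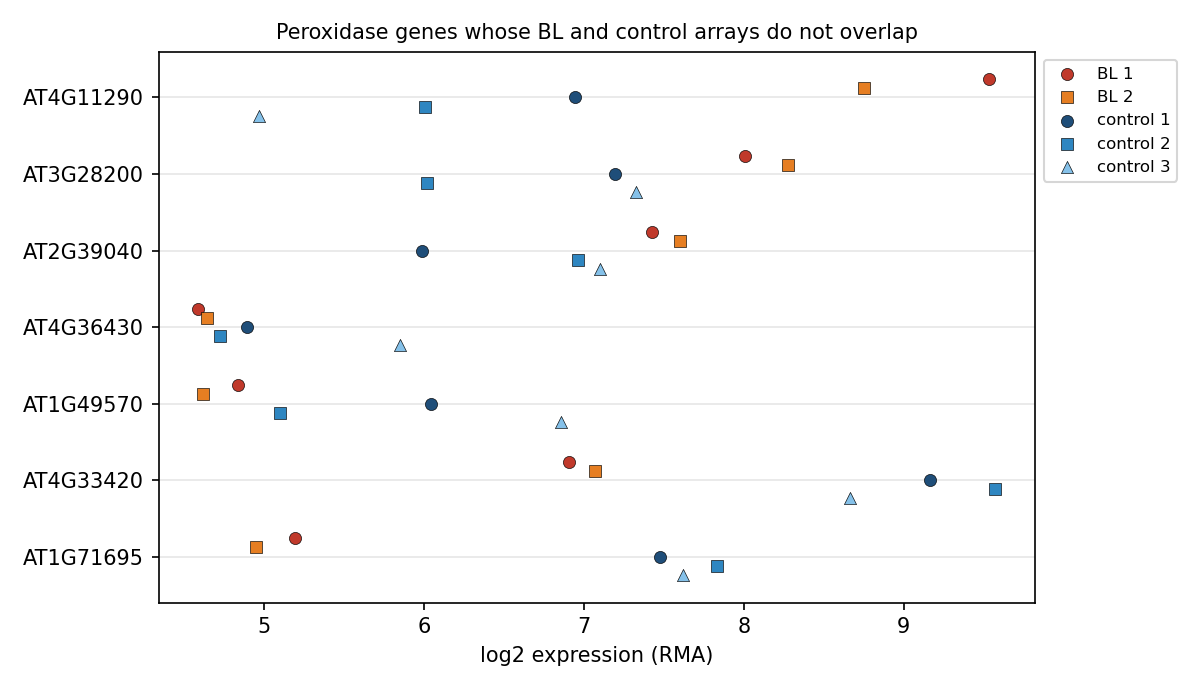
Log2 expression of the 7 peroxidase genes whose BL and control arrays did not overlap, 1 row per gene and 1 symbol per array (BL warm colours, controls blue). The gap is widest for AT1G71695, with BL at 4.95 and 5.19 and controls from 7.48 to 7.83, and narrowest for AT4G36430.

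AT2G18980 was singled out after its values were seen, since it had the largest difference from control 1 in the family, 4.04. It had 6.54 and 8.74 with BL, against 3.60, 6.56 and 3.89 in controls. Control 2 lay just above BL 1, so the groups overlapped, and the BL arrays differed by 2.20 from each other. The difference from all controls was 2.96 ± 1.24 (SE), with a limma adjusted p of 0.733. AT4G30170 and AT3G01190, singled out in the same way, had the same order of arrays among the controls. AT4G30170 had 8.76 and 9.16 with BL, against 6.25, 9.94 and 6.49 in controls. AT3G01190 had 7.35 and 8.87 with BL, against 4.94, 9.70 and 5.38 in controls. In both, the BL arrays lay above controls 1 and 3 and below control 2. Their differences of 1.40 ± 1.31 and 1.44 ± 1.72 (SE) became 2.59 and 2.95 without control 2, and 2.71 and 3.17 against control 1 alone. They shrank to 0.75 and 0.57 without control 1, and to 0.87 and 0.79 without control 3.

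Of 5 peroxidases listed for the Casparian strip, 3 were measured, and RCI3 and PER64 were not. Those measured besides AT4G11290 did not follow it. AT5G66390 (PRX72) had 7.92 and 8.98 with BL, against 9.23, 10.31 and 4.48 in controls. AT1G44970 had 5.41 and 6.69 with BL, against 7.30, 8.15 and 3.80 in controls. In both genes the BL arrays lay below controls 1 and 2 and above control 3. The difference of AT5G66390 was 0.44 ± 1.98 (SE), 1.59 without control 2 and -1.32 without control 3, so its sign turned with the control left out. Against control 1 alone it was -0.78. That of AT1G44970 was -0.37 ± 1.51 (SE), 0.50 without control 2, -1.68 without control 3 and -1.25 against control 1 alone. GSO1, a receptor kinase needed for an unbroken Casparian strip and the only measured one of 9 endodermis markers, had 6.40 and 7.09 with BL, against 7.0, 7.56 and 4.75 in controls. It was thus lowest in control 3, like AT4G11290, AT5G66390 and AT1G44970, where 18.4% of all probe sets were. The part of endodermal cells in these differences was not tested.

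**Figure D3:**
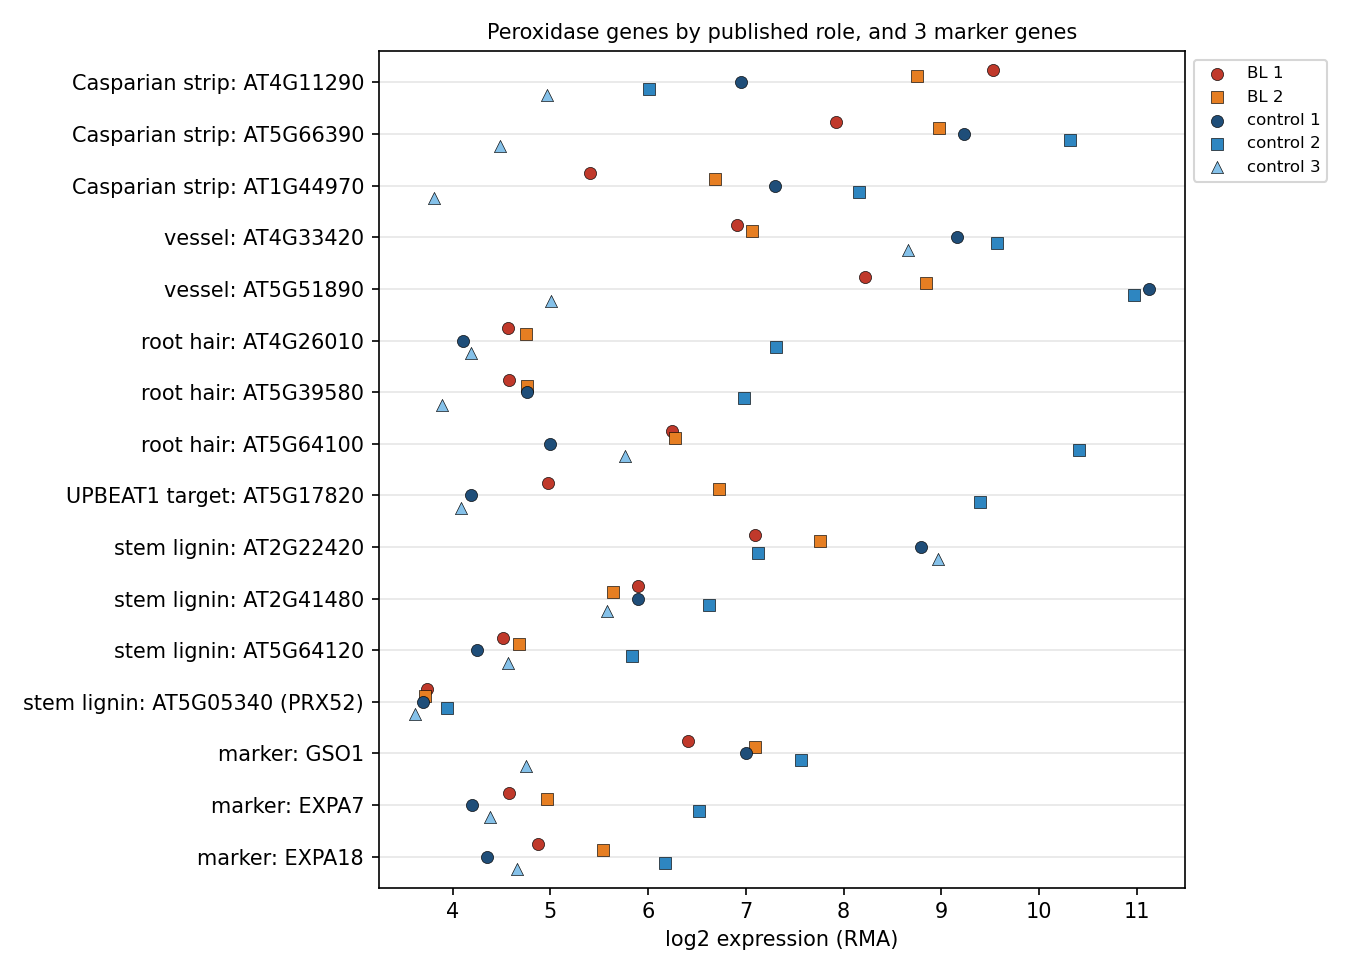
Log2 expression of 13 peroxidase genes grouped by published role and of 3 marker genes, 1 symbol per array (BL warm colours, controls blue). Control 3 is the leftmost array for AT4G11290, AT5G51890, AT5G66390, AT1G44970, AT5G17820, AT5G39580, AT2G41480, PRX52 and the marker GSO1. Control 2 is the rightmost in every row except AT4G11290, AT5G51890 and AT2G22420, and its lead over the next array is smaller for EXPA18 than for AT5G64100.

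Of 6 peroxidases listed for root hair growth, 3 were measured, and all 3 were highest in control 2, as were 26 of the 44 genes. AT5G64100 had 6.25 and 6.27 with BL, against 5.0, 10.41 and 5.76 in controls. AT4G26010 had 4.57 and 4.75 with BL, against 4.1, 7.31 and 4.19 in controls. AT5G39580 had 4.58 and 4.76 with BL, against 4.76, 6.98 and 3.89 in controls. Control 2 lay more than 2 log2 units above every other array in all 3 genes. Their differences of -0.80, -0.54 and -0.54 became 0.88, 0.51 and 0.34 without control 2, so their sign rests on that array. Without control 1 they were -1.83, -1.09 and -0.77. Against control 1 alone they were 1.26, 0.56 and -0.09. Of 7 hair cell markers 2 were measured, the expansins EXPA7 and EXPA18. EXPA7 had 4.57 and 4.96 with BL, against 4.20, 6.52 and 4.38 in controls, and EXPA18 had 4.87 and 5.54 with BL, against 4.35, 6.17 and 4.66 in controls. Both were thus highest in control 2 as well, as were 31.4% of all probe sets. GSO1 and the only cortex marker, AT1G62500, were also highest in control 2. AT1G62500 had 4.28 there, against 3.46 to 3.89 on the other arrays. The part of hair cells in the values of the peroxidases was not tested.

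AT5G17820, another peroxidase repressed by UPBEAT1, had 4.98 and 6.73 with BL, against 4.18, 9.40 and 4.08 in controls. Both BL arrays lay above controls 1 and 3 and below control 2. Its difference of -0.04 ± 1.99 (SE) was 1.67 against control 1 alone, 1.72 without control 2 and -0.94 without control 3. UPB1, the gene of UPBEAT1 itself, had 8.23 and 8.64 with BL, against 8.21, 8.46 and 7.97 in controls, and its difference of 0.22 ± 0.22 (SE) was within the spread between arrays. AT4G11290, the other measured peroxidase with this role, was described above, with 3.17.

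Of 5 peroxidases listed for stem lignin, 4 were measured. All 4 had a lower mean with BL, as 54.8% of all probe sets did, and a BL range overlapping the controls. AT2G22420 had 7.09 and 7.76 with BL, against 8.79, 7.12 and 8.96 in controls, a difference of -0.87 ± 0.68 (SE) that was -1.37 against control 1 alone. AT2G41480 (PRX25) and AT5G64120 (PRX71) differed by -0.27 ± 0.36 and -0.29 ± 0.53 (SE), and these were 0.0296 and 0.19 without control 2. That of AT5G64120 was also 0.34 against control 1 alone. PRX52, at -0.03 against all controls and 0.0647 without control 2, lay between 3.62 and 3.94 on all arrays, among the dimmest of the family.

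The genes with the brightest probe sets had lower means with BL as well. PRXR1 had 11.08 and 10.97 with BL, against 12.51, 11.03 and 12.62 in controls. BL 1 and control 2 were almost level, and controls 1 and 3 lay more than 1 log2 unit above. Its difference was -1.03 ± 0.56 (SE), with a limma adjusted p of 0.771, and it was -1.54 without control 2 and -0.74 without control 3. AT3G21770 had 10.00 and 10.48 with BL, against 11.25, 9.30 and 11.19 in controls, a difference of -0.34 ± 0.72 (SE). That became -0.98 without control 2 and -1.01 against control 1 alone, but was near 0 without control 1 (-0.0037) and without control 3 (-0.038). These 2 genes were the only ones of the 44 above the 75th percentile of the array on all 5 arrays, where 17.7% of all probe sets were. Brightness also depends on the probes, so the order of genes by array value is not an order of transcript number.

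Control 2 and control 3 departed from the other arrays in many members. Control 2 was above each of the other 4 arrays for 26 of the 44 genes, where 31.4% of all probe sets had that order. It exceeded the mean of the other arrays by at least 2 log2 units for 14 genes, or 31.8%, against 1.84% of all probe sets. AT5G64100, AT5G17820 and AT2G37130 led these with excesses of 4.59, 4.41 and 4.26. Control 3 was below each of the other arrays for 15 of the 44 genes, against 18.4% of all probe sets, and at least 2 log2 units below their mean for 8 genes, or 18.2%, against 0.673%. AT5G51890 and AT5G66390 led these with -4.79 and -4.63. In all, 6 genes were in both sets. These counts describe single arrays, and their cause was not tested.

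**Figure D4:**
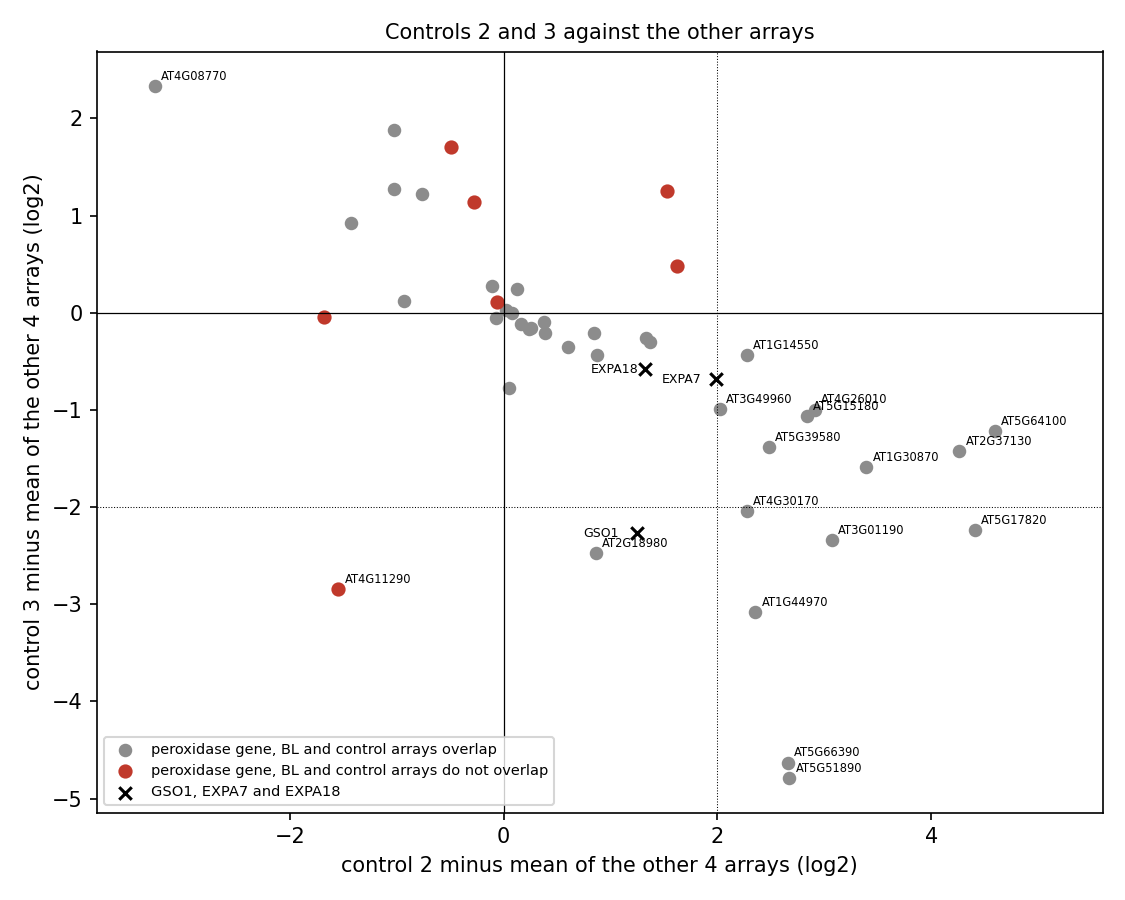
For each of the 44 peroxidase genes, control 2 (horizontal axis) and control 3 (vertical axis) minus the mean of the other 4 arrays, in log2 units, with red for the 7 genes whose BL and control arrays did not overlap and crosses for 3 marker genes. Dotted lines mark 2 and -2, past which lie 14 genes on the right and 8 at the bottom, while Prx37 (AT4G08770) stands alone at the upper left.

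Of the 14 genes with the excess in control 2, 10 had a BL mean below the control mean, and 8 had a BL mean above control 1. Over all probe sets, whatever their value in control 2, these shares were 54.8% and 50.5%. Control 2 is part of the control mean, so picking genes by its excess itself favours a BL mean below that mean. The shares among all probe sets with such an excess were not analysed here. AT2G37130 had 5.84 and 6.01 with BL, against 4.79, 9.71 and 5.16 in controls. AT1G30870 had 5.22 and 7.15 with BL, against 4.66, 8.87 and 4.88 in controls. In both genes the BL arrays lay above controls 1 and 3 and below control 2. The differences were -0.63 for AT2G37130 and 0.04 for AT1G30870, and 1.14 and 1.52 against control 1 alone. Over the family the median difference was -0.0032 against control 1 alone, with 18 genes higher, 22 lower and 4 at exactly 0. Over all probe sets that median was 0.0029, with 50.5% higher, 44.6% lower and 4.86% at exactly 0. Against the remaining controls, the family's median was -0.17 without control 1, 0.05 without control 2 and -0.32 without control 3.

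The BL arrays also differed from each other in some members. BL 1 exceeded BL 2 by at least 1 log2 unit for 0 of the 44 genes, a direction whose share over all probe sets was not analysed here. BL 2 exceeded BL 1 by as much for 6 genes, where 0.611% of all probe sets had that difference. The 6 genes were AT2G18980, AT1G30870, AT5G17820, AT3G01190, AT1G44970 and AT5G66390, with 2.20, 1.93, 1.75, 1.52, 1.28 and 1.05.

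Neighbouring genes were compared where both had a probe set of their own. Prx37 and AT4G08780 are adjacent. Prx37 had 7.01 and 6.61 with BL, against 7.01, 4.02 and 8.49 in controls, and AT4G08780 had 5.06 and 4.72 with BL, against 5.5, 4.50 and 6.82 in controls. Both were lowest in control 2 and highest in control 3, and their differences were 0.30 ± 1.44 and -0.72 ± 0.74 (SE). AT5G64100, AT5G64110 and AT5G64120 lie side by side. With BL, AT5G64110 was at 4.1 on both arrays and AT5G64120 at 4.51 and 4.68, against 4.65 and 5.83 in control 2, where both genes, like AT5G64100, were highest. AT4G25980 and AT4G26010 are separated by 2 genes, and AT4G25980 lay between 4.16 and 4.42 on all arrays while AT4G26010 reached 7.31 in control 2. The adjacent genes AT5G19880 and AT5G19890 were both dim, at 3.74 to 4.08. How far probes of related genes pick up each other's transcripts was not tested.

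The remaining members with a range of at least 1 log2 unit over the arrays overlapped between the groups. AT1G14550, AT5G15180, AT2G34060 and AT3G49960 had BL values from 3.89 to 5.12, and each was highest in control 2, at 6.93, 6.65, 6.12 and 6.66. Their differences were -0.94, -0.83, -0.42 and -0.15, and against control 1 alone -0.22, -0.066, 0.098 and 0.57. AT5G06730 had 5.64 and 5.41 with BL, against 6.79, 4.99 and 5.83 in controls, and differed by -0.35 ± 0.58 (SE), or -1.27 against control 1 alone and 0.11 without control 1. AT5G40150 had 6.42 and 6.38 with BL, against 6.91, 6.42 and 5.76 in controls, with a difference of 0.04 ± 0.37 (SE) that was -0.51 against control 1 alone and 0.31 without control 1.

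A dim set of 12 genes varied by less than 1 log2 unit over the 5 arrays. Their values lay between 3.55 and 5.47, at or below the array median on all 5 arrays, as did 42.9% of all probe sets. Their differences ran from -0.29 to 0.05, and the limit on the range kept them under 1 log2 unit by construction. AT2G24800, PRX52 and AT4G17690 had the lowest means of the family, with differences of -0.03, -0.03 and -0.08. In 7 of the 12, 2 or more arrays had exactly the same value. Signal was not compared with background, so a low value does not show that a gene is silent in these cells.

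Genes that act with peroxidases in lignin and reactive oxygen chemistry were mostly outside the annotation used here, and 0 of the measured ones passed the adjusted threshold. In monolignol synthesis 2 of 17 genes were measured, both with a lower mean with BL, as 54.8% of all probe sets had. HCT, which makes the shikimate esters on the path to lignin monomers, had 9.18 and 9.70 with BL, against 11.16, 10.26 and 10.83 in controls. Both BL arrays lay below all controls, as they did for 9.75% of all probe sets. The difference was -1.31 ± 0.34 (SE) with a limma adjusted p of 0.597. CCR2, a cinnamoyl-CoA reductase, had 5.15 and 5.48 with BL, against 6.92, 9.03 and 4.21 in controls, so the groups overlapped, with the low control 3 and high control 2 seen in AT5G66390. Its difference was -1.40 ± 1.52 (SE), with a limma adjusted p of 0.835. Of the NADPH oxidases, which make the superoxide from which peroxidase substrate arises, 3 of 10 were measured. All 3 had a lower mean with BL, where 54.8% of all probe sets did. Their median difference was -0.30, and it was -0.05 against control 1 alone. AT1G19230 had the largest of these differences, -0.80 ± 0.48 (SE). Of the laccases, which also polymerise lignin, LAC16 alone of 17 was measured, at 3.67 to 3.80 on all arrays. Of the superoxide dismutases 1 of 8 was measured, AT3G56350, with a difference of -0.51 ± 0.57 (SE) that was 0.19 against control 1 alone.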

How the data were processed

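Deposited log2 values of 5 arrays were analysed, which the authors obtained by RMA according to the submitters' processing notes (R 4.1.1, affy 1.70.0, limma 3.48.3). This method corrects background, equalises the distributions of the arrays and fits a median polish per probe set, which can leave ties: 13 of the 44 genes and 44.7% of all probe sets had a value shared by 2 or more arrays. Base 2 was inferred from the method and the values. Sample titles gave group and replicate number. Nothing in the labels tells whether replicates were separate cultures of seedlings, so p-values cover only the spread between arrays, possibly technical, and 5 arrays limit the precision.

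BL was compared with control over 22746 probe sets, with 64 control probe sets set aside, by limma 3.58.1 under R 4.3.3 (lmFit, eBayes, treatment as the only term, two-sided, Benjamini-Hochberg over all probe sets). The fit had 3 residual and 1.22 prior degrees of freedom and was tested on simulated data. Members, lists and alternatives were chosen with earlier results of these arrays known. Named genes were, in each direction, up to 6 with no overlap and a fold of at least 1.5 (3 each were found), genes with published roles, and the 3 brightest and 3 dimmest. Others were described after their values were seen. Alternatives changed the block, a term for controls 2 and 3, the normalization, weights, variance model, filter, fold and arrays left out. Names came from the platform annotation and RefSeq (TAIR10.1). No coordinates are given, as the values name no build.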

Additional observations from a re-analysis of the deposited data

How the results depend on the processing

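No gene and no other probe set passed the adjusted threshold in any of the alternatives, all listed with earlier results known. The smallest adjusted p was 0.057 over all probe sets and 0.078 in the family, both with array weights. AT1G71695, AT4G33420, AT1G49570 and AT4G36430 stayed lower with BL, and AT4G11290, AT3G28200 and AT2G39040 higher, in each fit, which the lack of overlap fixes for the fits that drop, weight or block arrays. Over the 35 genes that the naming rule took or that ranged by at least 1 log2 unit, 144 of 175 values outside the fits with 1 array left out kept their direction, 30 turned and 1 was exactly 0 (AT4G17690 with a term for controls 2 and 3).

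The count of 356 probe sets with a fold of 1.5 or more and an unadjusted p under 0.01 became 199 with the replicate block, 907 with array weights, 237 above the median level and 220 at a fold of 2, and ran from 98 to 1108 with 1 array left out. The family's count of 3 became 7 with the replicate block and 5 with array weights, and ran from 1 to 5. Fewer probe sets or arrays enter some of these by construction, and for the others the cause was not tested. After the group means were taken off, values correlated at -0.0601 between both replicates 1 and 0.0374 between both replicates 2. With 2 BL arrays, the deviations of BL 1 and BL 2 mirror each other, so these values are not independent. The labels do not tell whether samples with the same number were prepared together. As only controls have a replicate 3, the replicate block gives the differences found without control 3.

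The replicate block turned AT5G66390 to -1.32, AT5G40150 to -0.27 and AT1G30870 to -0.58. A term for controls 2 and 3 turned AT5G66390 to -0.78, AT5G64120 to 0.34, PRX52 to 0.0233, AT4G26010 to 0.56, AT5G64100 to 1.26, AT5G17820 to 1.67, AT2G24800 to 0.00121, Prx37 to -0.20, AT5G40150 to -0.51, AT2G37130 to 1.14, AT3G49960 to 0.57 and AT2G34060 to 0.0979. Quantile normalization turned PRX52 to 0.00684 and AT1G30870 to -0.0219, and cyclic loess turned PRX52 to 0.0191 and AT2G24800 to 0.0212. Array weights turned AT1G44970 to 0.93, AT5G51890 to 1.45, PRX52 to 0.0468, AT4G26010 to 0.0932, AT5G39580 to 0.20, AT5G64100 to 0.0732, AT5G17820 to 1.07, AT4G17690 to 0.0314, Prx37 to -0.80, AT2G37130 to 0.27 and AT3G49960 to 0.37. In fits that omit 1 array (a single remaining BL array is taken to vary as controls do), these differences had both signs: AT1G30870 from -0.92 to 1.41, AT1G44970 from -1.68 to 0.50, AT2G34060 from -0.67 to 0.0453, AT2G37130 from -1.51 to 0.95, AT2G41480 from -0.49 to 0.0296, AT3G49960 from -0.57 to 0.63, Prx37 from -0.94 to 1.29, AT4G17690 from -0.18 to 0.0589, AT4G26010 from -1.09 to 0.51, PRX52 from -0.0983 to 0.0647, AT5G06730 from -0.79 to 0.11, AT5G15180 from -1.42 to 0.14, AT5G17820 from -0.94 to 1.72, AT5G39580 from -1.20 to 0.34, AT5G40150 from -0.27 to 0.31, AT5G51890 from -2.52 to 0.55, AT5G64100 from -1.83 to 0.88, AT5G64120 from -0.60 to 0.19 and AT5G66390 from -1.32 to 1.59. No such difference had been called, and what turned it was not tested. Signal over background was not analysed here.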
